A study of Nomascus leucogenys with 9 samples.

Results

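Genes of glycolysis and of the response to low oxygen were examined in lymphoblastoid cell lines from the northern white-cheeked gibbon (Nomascus leucogenys). The genes are a fixed list of 37 human-format Ensembl identifiers with their symbols, drawn up from pathway knowledge. Earlier results of these data were known when the list was chosen. Of the 37 genes, 36 matched a row of the table, out of 15356 rows in all. The identifier of EGLN1 (ENSG00000135766), the main prolyl hydroxylase that marks HIF proteins for destruction when oxygen is plentiful, matched no row, and EGLN1 was not analysed here. All 36 passed the filter on low rows, a mean of at least 1 part per 1000000 (ppm) of the summed linear values, which 12590 rows passed.

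RNA-seq had been carried out on 9 lines, 1 from each of 9 animals, with no treatment and no contrast between them. Each line is a culture of lymphocytes that Epstein-Barr virus (EBV) has transformed, and goes by the name of its animal: Asia, Bobby and China, then Khao and Melouprey, then Nancy, Phyllis and Ricky, and last Vok. The series is about LAVA, a retrotransposon of gibbons. The animals' age, the oxygen level, the passage and the density of the cultures were not given in the sources used here, and a difference between lines cannot be told apart from one between animals, cultures or transformation events. In bulk RNA, fewer cells that express a gene and less RNA per cell cannot be told apart either. Markers of B cells and of other cell types were not analysed here, because the sources used here pair no other identifiers with symbols.

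Glycolysis splits glucose into pyruvate in the cytosol, and cells with little oxygen rely on it for ATP. When oxygen is scarce, the hydroxylases of the EGLN family no longer mark HIF1A and EPAS1 for destruction. The stabilised proteins then switch on glucose transporters, glycolytic enzymes, lactate export and a set of other genes. HIF1A is controlled mostly at the protein level, so its transcript need not follow its activity. Lymphoblastoid lines are known for strong glycolysis, and proteins of EBV have been linked to HIF1A in B cells.

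Levels are given in log2 units as deposited, with the SD over 9 lines. They are not scaled to transcript length, so levels are compared between lines and not between genes. The SD of the deviations of a line from the row medians, over the 12590 rows, ran from 0.22 to 0.53 log2 units. It was 0.53 in Asia, 0.42 in Nancy and 0.40 in Vok, the widest of the lines. The mean correlation of a line with the others lay between 0.965 and 0.983. Vok was the highest line in 21.7% of all kept rows and the lowest in 17.1%, with a median deviation of 0.00, so it stood at an end of many rows in both directions. The part of this in the results on Vok below was not tested.

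The 11 transcripts grouped here as effectors of the hypoxia response were low together in 1 line, Vok. Vok was the lowest line for 21 of the 36 genes (58.3%), against 17.1% of all kept rows. It lay at least 2-fold below the row median in 12 of the 36 (33.3%), against 1.29% of all kept rows. The effectors were CA9, VEGFA, BNIP3, BNIP3L, P4HA1, ANKRD37, NDRG1, ADM, KDM3A, DDIT4 and MXI1. Vok was lowest in every one, 11 of 11, with a median deviation of -1.31 log2 units. HIF targets among the glycolytic enzymes and transporters, such as PGK1 and SLC16A3, were placed in those groups. There Vok was lowest for 4 of 9 genes of upper glycolysis, 1 of 6 of lower glycolysis, 1 of 3 of pyruvate fate and 3 of 4 transporters. By Dixon's gap criterion 8 of the 36 genes (22.2%) had an outlying line, against 10.1% of all kept rows, and Vok was the outlying low line in 7 of the 36 (19.4%), against 1.52%. The median deviation in Vok was -0.48 for 9 enzymes of upper glycolysis and -0.03 for 6 of lower glycolysis. A single line gives no test of these differences, and the counts are a description of that line.

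**Figure D1:**
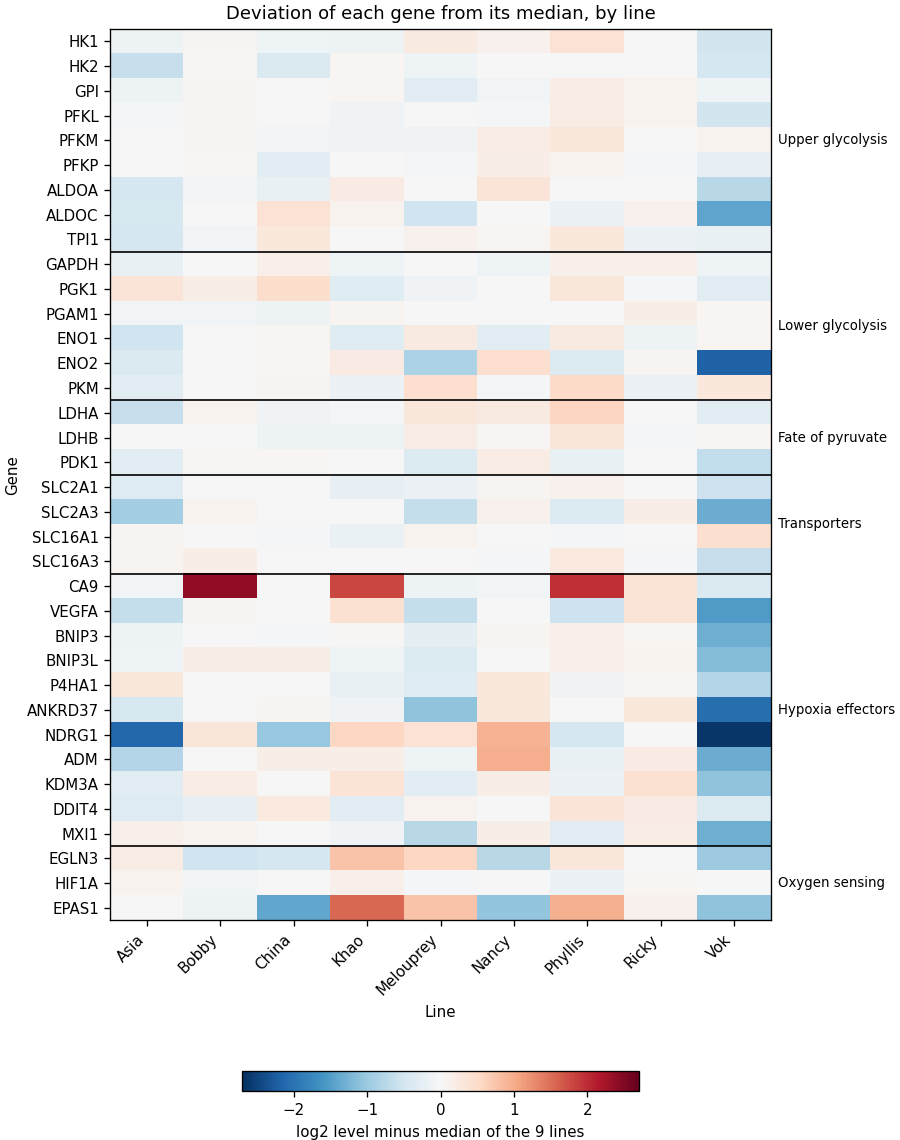
Heat map of the log2 level of each of 36 genes (vertical axis, grouped by role) in each of 9 lines (horizontal axis), minus the gene's median over the lines. The column of Vok is blue for all 11 hypoxia effectors, with NDRG1 the farthest down at -2.64 log2 units, while CA9 stands out in red in Bobby, Khao and Phyllis.

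The hypoxia effectors varied more between lines than the list as a whole. All but DDIT4 spanned at least 2-fold from the lowest to the highest line, 10 of 11, and the median range was 2.84-fold. Without Vok, 5 of the 11 (CA9, VEGFA, ANKRD37, NDRG1 and ADM) spanned at least 2-fold, with a median range of 1.93-fold. Over all 36 genes, 17 spanned at least 2-fold (47.2%), against 26.4% of all kept rows, and 6 spanned at least 4-fold (16.7%), against 6.18%. The median range was 1.86-fold over the 36 genes and 1.60-fold over all kept rows. Vok carried much of this: without it, 10 of the 36 genes (27.8%) spanned at least 2-fold and 3 spanned at least 4-fold. The shares of all kept rows without Vok were not computed. Whether the list varied more than other rows in the remaining lines is therefore not known.

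NDRG1 (ENSG00000104419), a stress-response gene widely used as a marker of hypoxia, spanned the most. It ran from 7.94 log2 units in Vok and 8.46 in Asia through a median of 10.58 in Ricky to 11.51 in Nancy (mean 10.13 ± 1.24, SD, n = 9). The full range was 11.8-fold, and 8.28-fold without Vok, since Asia lay almost as low and China, at 9.55, came next. China stood nearer to the other 6 lines, which lay between 10.10 and 11.51, than to Asia.

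ANKRD37 (ENSG00000186352), a small ankyrin-repeat protein and a direct HIF target, was low in a pair of lines. It stood at 7.85 log2 units in Vok and 8.81 in Melouprey, with a median of 9.89 and a highest value of 10.19 in Ricky (mean 9.56 ± 0.77, SD, n = 9). The other 7 lines lay between 9.47 and 10.19, above both.

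VEGFA (ENSG00000112715) encodes the growth factor that recruits blood vessels. Its lowest value was 9.67 log2 units in Vok, its median 11.21 in Nancy and its highest 11.61 in Khao (mean 10.92 ± 0.62, SD, n = 9), a 3.84-fold range. Asia (10.55), Melouprey (10.57) and Phyllis (10.65) formed a middle level between Vok and the other 5 lines.

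ADM (ENSG00000148926) encodes adrenomedullin, a vasodilator peptide induced by hypoxia. It ran from 9.11 log2 units in Vok and 9.66 in Asia through a median of 10.44 in Bobby to 11.42 in Nancy (mean 10.34 ± 0.65, SD, n = 9), a 4.98-fold range. Nancy stood above the next line, Ricky, at 10.66. The lines other than Nancy, Vok and Asia lay between 10.24 (Phyllis) and 10.66.

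BNIP3 and BNIP3L are related mitochondrial proteins that direct mitochondria to autophagy. BNIP3 (ENSG00000176171) stood at 11.76 log2 units in Vok and between 12.85 (Melouprey) and 13.22 (Phyllis) elsewhere, with a median of 13.09 (mean 12.93 ± 0.45, SD, n = 9). The gap below the next line was 2.12-fold, whereas the other 8 lines spanned 1.30-fold. BNIP3L (ENSG00000104765) stood at 9.99 in Vok and between 10.80 (Melouprey) and 11.33 (Bobby) elsewhere, with a median of 11.16 (mean 11.03 ± 0.43, SD, n = 9). In both genes Vok lay outside the range of the other lines, and the ratio of BNIP3 to BNIP3L varied by only 1.27-fold over the 9 lines.

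KDM3A (ENSG00000115548), a histone H3 lysine demethylase, and MXI1 (ENSG00000119950), an antagonist of MYC, are both HIF targets. KDM3A ran from 10.35 log2 units in Vok through a median of 11.43 in China to 11.85 in Ricky (mean 11.36 ± 0.46, SD, n = 9). MXI1 ran from 9.42 in Vok and 9.97 in Melouprey through a median of 10.73 in China to 10.92 in Ricky (mean 10.52 ± 0.51, SD, n = 9). P4HA1 (ENSG00000122884), a subunit of the enzyme that hydroxylates collagen, ran from 9.03 in Vok through a median of 9.82 in China to 10.12 in Asia (mean 9.73 ± 0.33, SD, n = 9). The order of the other lines differed: Asia was the highest line for P4HA1 and among the lowest for VEGFA, NDRG1 and ADM.

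DDIT4 (ENSG00000168209), an inhibitor of mTORC1 signalling that also answers to other stresses, set Vok least apart. It stood at 13.09 log2 units in Vok and 13.12 in Asia, with a median of 13.47 in Nancy and 13.82 in Phyllis (mean 13.44 ± 0.28, SD, n = 9). Vok and Asia differed by 0.03 log2 units, and the whole range was 1.66-fold.

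CA9 (ENSG00000107159), a carbonic anhydrase of the cell surface that is a standard marker of hypoxia, was high in some lines and low in the rest. The high values were 7.76 log2 units in Bobby, 7.34 in Phyllis and 7.18 in Khao. The other 6 lines lay between 4.97 (Vok) and 5.74 (Ricky), with a median over all lines of 5.37 (mean 6.02 ± 1.08, SD, n = 9). Bobby was thus 6.88-fold above Vok, and the mean over the lines was 6.10 ppm. Nancy, the highest line for NDRG1 and ADM, was low in CA9 at 5.31, whereas Khao was high in CA9 and second in NDRG1.

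**Figure D2:**
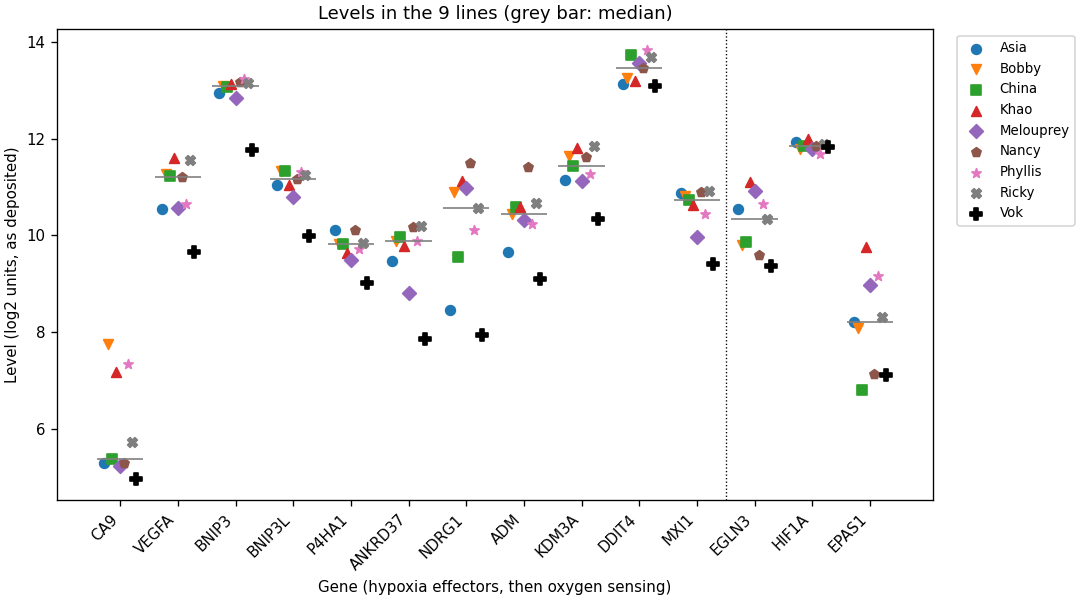
Levels in log2 units as deposited (vertical axis) of 11 hypoxia effectors and 3 oxygen-sensing genes (horizontal axis), with 1 symbol for each of 9 lines and a grey bar at the median. The black cross of Vok is the lowest symbol for all 11 effectors, whereas the symbols for HIF1A fall within 0.30 log2 units.

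Melouprey and Asia came next to Vok. Among the 8 other lines, Melouprey was the lowest for 7 of the 11 effectors and Asia for the remaining 4. The like shares of all kept rows were not computed. With Vok included, Melouprey was the lowest line in 10.7% of all kept rows and Asia in 14.0%. The median deviations of Melouprey and Asia over the effectors were -0.30 and -0.29 log2 units, against -1.31 in Vok. Ricky had the highest median, 0.22, and lay at or above the row median for all 11. Over all kept rows, Ricky lay below the row median in 5609 of 12590.

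Of the oxygen-sensing genes, the transcript of HIF1A, the inducible subunit of the main hypoxia factor, hardly varied. HIF1A (ENSG00000100644) ran from 11.69 log2 units in Phyllis through a median of 11.85 to 11.99 in Khao (mean 11.84 ± 0.089, SD, n = 9). The range was 1.23-fold, and 3.17% of all kept rows had a smaller SD. Vok stood at 11.84, near the median, so the line lowest in the effectors was not low in HIF1A transcript.

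EPAS1 and EGLN3 varied together instead. EPAS1 (ENSG00000116016), a related HIF subunit best known from endothelium, ran from 6.82 log2 units in China, 7.12 in Vok and 7.14 in Nancy through a median of 8.21 in Asia to 9.76 in Khao (mean 8.18 ± 1.01, SD, n = 9). EGLN3 (ENSG00000129521), a prolyl hydroxylase that HIF itself induces, ran from 9.37 in Vok and 9.59 in Nancy through a median of 10.35 in Ricky to 11.11 in Khao (mean 10.24 ± 0.61, SD, n = 9). Khao, Melouprey and Phyllis were the 3 highest lines in both genes, and China, Nancy, Vok and Bobby the 4 lowest. The correlation over the 9 lines was r = 0.91, and 0.90 without Vok; this pair was chosen after its values were seen, so r is given as a description. The ranges were 7.71-fold for EPAS1 and 3.34-fold for EGLN3.

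The enzymes of upper glycolysis prepare glucose for cleavage. Their median range was 1.63-fold, near the 1.60-fold of all kept rows, and ALDOC had the widest range among them. ALDOC (ENSG00000109107), the aldolase best known from brain, ran from 10.29 log2 units in Vok through a median of 11.71 in Bobby to 12.10 in China (mean 11.50 ± 0.53, SD, n = 9), a 3.50-fold range. The ubiquitous aldolase ALDOA (ENSG00000149925) ran from 14.00 in Vok through a median of 14.75 to 15.09 in Nancy (mean 14.65 ± 0.33, SD, n = 9), a 2.14-fold range. Both were lowest in Vok, but their ratio changed by 2.37-fold between China and Vok.

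The hexokinases commit glucose to the pathway. HK1 (ENSG00000156515) lay between 11.52 (Vok) and 12.42 (Phyllis), and HK2 (ENSG00000159399), the isozyme induced by hypoxia, between 11.54 (Asia) and 12.23 (Khao). HK2 was low in Asia, Vok (11.69) and China (11.78), and the other 6 lines fell within 12.06 to 12.23. The 3 phosphofructokinase genes, whose enzyme controls the flux, had ranges of 1.63-fold (PFKL), 1.31-fold (PFKM) and 1.38-fold (PFKP). PFKL stood at 11.87 in Vok and between 12.27 and 12.57 elsewhere, while PFKM in Vok (10.88) was above its median of 10.78. TPI1, the triose phosphate isomerase, spanned 1.67-fold with its lowest value in Asia, and GPI, the glucose phosphate isomerase, 1.41-fold.

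In lower glycolysis, which yields ATP and pyruvate, the enolases moved in different ways. ENO2 (ENSG00000111674), the neuron-specific enolase, ran from 10.57 log2 units in Vok and 11.92 in Melouprey through a median of 12.77 in Bobby to 13.23 in Nancy (mean 12.44 ± 0.80, SD, n = 9), a 6.29-fold range. ENO1 (ENSG00000074800), the ubiquitous enolase, ran from 15.05 in Asia through a median of 15.58 in Bobby to 15.83 in Melouprey and Phyllis (mean 15.51 ± 0.27, SD, n = 9). Vok, at 15.64, was above the ENO1 median, and the ratio of ENO1 to ENO2 differed 7.97-fold between Nancy, where it was lowest, and Vok. This was the widest ratio among the 11 pairs of related genes that were compared. Where Nancy or Khao was high in ENO2, ENO1 lay below its median.

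PKM (ENSG00000067225), the pyruvate kinase, ran from 15.00 log2 units in Asia through a median of 15.28 in Bobby to 15.79 in Phyllis (mean 15.36 ± 0.28, SD, n = 9). Melouprey (15.74) and Vok (15.56) followed Phyllis. GAPDH (ENSG00000111640), often used as a reference gene, lay between 16.86 and 17.21 (mean 17.06 ± 0.13, SD, n = 9), a 1.27-fold range. PGK1 (ENSG00000102144), the phosphoglycerate kinase and a textbook HIF target, lay between 11.21 in Khao and 12.01 in China (mean 11.59 ± 0.28, SD, n = 9), and Vok (11.23) was next to Khao. PGK1 was high in China and Asia. Its median correlation with the 11 hypoxia effectors was 0.44, and -0.0040 without Vok.

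The rows of GPI and PGAM1, at 5.12 ± 0.15 and 5.67 ± 0.091 log2 units (SD, n = 9), had means of 2.51 and 3.65 ppm. Processed pseudogenes are known for GAPDH, PGK1, PGAM1, TPI1, LDHA and LDHB. How reads shared with them were counted is not given in the sources used here, so the levels of these rows are uncertain. Whether other rows, ENO1, PKM and ALDOA included, share reads in this way was not examined. In 6 genes (PFKP, ALDOA, TPI1, GAPDH, ENO1 and PKM) at least a pair of lines had the same value within 0.0001 log2 units. Small differences between lines are therefore not resolved in these abundant rows.

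Pyruvate is reduced to lactate by lactate dehydrogenase or passed to mitochondria. LDHA (ENSG00000134333), the subunit that favours lactate, ran from 14.83 log2 units in Asia and 15.15 in Vok through a median of 15.45 in Ricky to 16.03 in Phyllis (mean 15.47 ± 0.35, SD, n = 9), a 2.30-fold range. LDHB (ENSG00000111716) spanned 1.39-fold and was also highest in Phyllis, at 13.78. The LDHA to LDHB ratio was lowest in Asia and Vok, at -0.71 and -0.44 log2 units from its median. PDK1 (ENSG00000152256), the kinase that shuts pyruvate out of mitochondria, ran from 10.03 in Vok to 10.89 in Nancy (mean 10.55 ± 0.27, SD, n = 9). Unlike LDHA, PDK1 was below its median in Phyllis.

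Among the transporters, SLC2A3 varied most. SLC2A3 (ENSG00000059804), a high-affinity glucose transporter, ran from 10.24 log2 units in Vok and 10.65 in Asia through a median of 11.57 in China to 11.74 in Ricky (mean 11.25 ± 0.54, SD, n = 9), a 2.84-fold range. SLC2A1 (ENSG00000117394), the common glucose transporter, ran from 11.30 in Vok through a median of 11.85 to 11.96 in Phyllis (mean 11.73 ± 0.22, SD, n = 9). Both were lowest in Vok, followed by Asia.

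The lactate transporters differed in where Vok stood. SLC16A3 (ENSG00000141526), which exports lactate and is a HIF target, stood at 10.70 log2 units in Vok and between 11.29 and 11.60 elsewhere. SLC16A1 (ENSG00000155380), which moves lactate in both directions, stood at 11.17 in Vok and between 10.54 and 10.83 elsewhere. Vok lay outside the other lines in both, below them for SLC16A3 and above them for SLC16A1, and the ratio of SLC16A1 to SLC16A3 in Vok was 1.08 log2 units above its median.

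Phyllis had high levels of many glycolytic enzymes. Phyllis was the highest line for 12 of the 36 genes (33.3%), against 7.85% of all kept rows, and 8 of these were enzymes of glycolysis or lactate dehydrogenase subunits (ENO1 was equal in Melouprey within 0.0001 log2 units). Its median deviation was 0.19 log2 units in upper glycolysis, 0.19 in lower glycolysis and -0.10 in the hypoxia effectors. Asia was the lowest line for 6 of the 36 (16.7%), a share near its 14.0% of all kept rows; the genes were HK2, TPI1, GAPDH, ENO1, PKM and LDHA. Nancy was the highest line for 6 of the 36 (16.7%), against 10.7% of all kept rows, ENO2, NDRG1 and ADM among them.

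**Figure D3:**
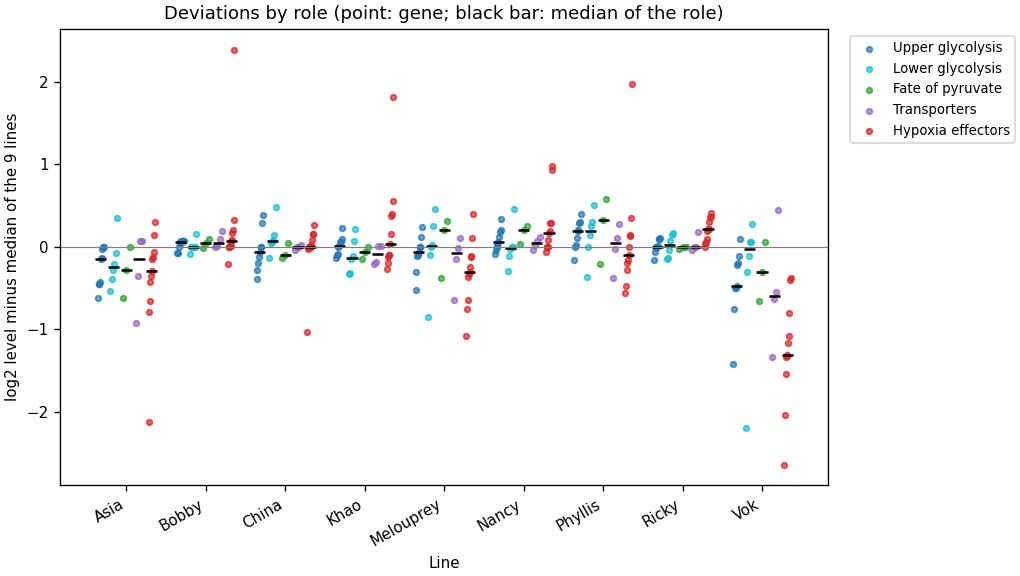
Log2 level minus the median of the 9 lines (vertical axis) for 33 genes in each line (horizontal axis), coloured by role, with a black bar at the median of each role. The bar of the hypoxia effectors lies at -1.31 in Vok, while that of lower glycolysis lies at -0.03, and in Phyllis the bars of both parts of glycolysis lie at 0.19.

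Genes that varied together were examined next. The hypoxia effectors correlated with each other over the 9 lines with a median r of 0.69 over 55 pairs, against 0.35 over the 630 pairs of all 36 genes and 0.0088 over all pairs of kept rows. Without Vok the median over the effectors was 0.33, with 0.17 over all 36 genes and 0.010 over all kept rows. These correlations share the 9 libraries and are a description.

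Genes of glycolysis fell along a scale by their correlation with the effectors. The median r with the 11 effectors was 0.90 for ENO2, 0.86 for ALDOC, 0.83 for PDK1, 0.81 for SLC2A3 and 0.73 for ALDOA. At the other end it was -0.18 for ENO1, -0.18 for LDHB, -0.29 for PKM and -0.78 for SLC16A1. Without Vok, ENO2 (0.69), PDK1 (0.65), SLC2A3 (0.62) and ALDOC (0.55) stood highest among the genes outside the effectors, whereas SLC16A3 went from 0.67 to -0.08 and PFKL from 0.67 to -0.10. Without Vok the median was also nearer 0 for ALDOA (0.31) and SLC16A1 (-0.29), and it was -0.20 for LDHB, -0.12 for PKM and near 0 for ENO1. The positive median did not hold without Vok in SLC16A3 and PFKL, nor in HK1 (0.52 to -0.034) and PGK1 (0.44 to -0.0040). Of the oxygen-sensing genes, HIF1A had a median r of 0.047 with the effectors, and 0.029 without Vok. EGLN3 went from 0.27 to -0.30 without Vok, and EPAS1 from 0.19 to -0.18. Without Vok, r was positive with 1 of the 11 effectors for EGLN3 and with 2 for EPAS1.

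**Figure D4:**
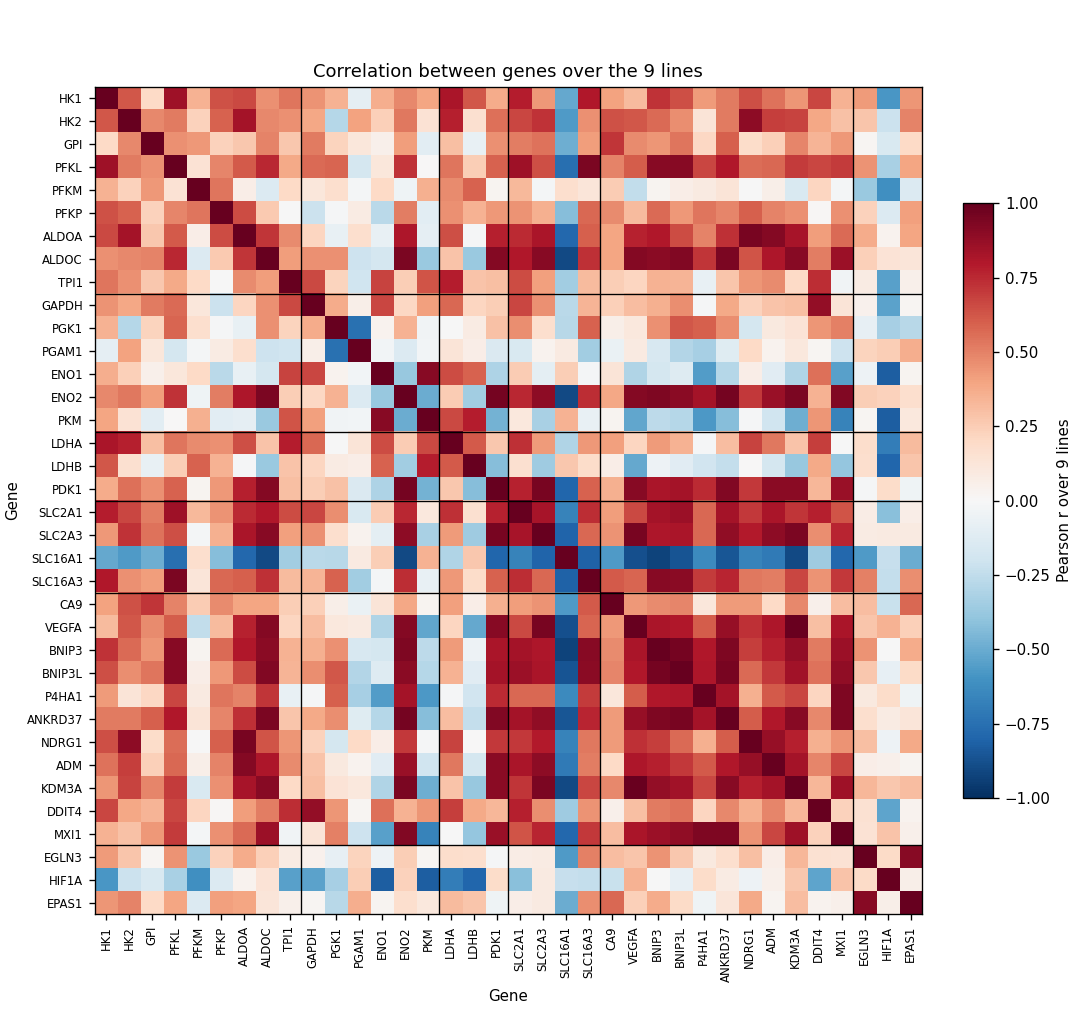
Pearson r over 9 lines for every pair of the 36 genes, which are listed by role on both axes. ENO2, ALDOC, PDK1 and SLC2A3 share the red block of the hypoxia effectors (median r of 0.90, 0.86, 0.83 and 0.81), and the row of SLC16A1 is blue across them (median r of -0.78).

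Of 30 pairs listed for test, 28 had both genes in the table, and 5 of the 28 were called by an exact two-sided permutation test over the 9 lines with Benjamini-Hochberg adjustment over the 28. All 5 were positive. At an unadjusted p under 0.05, 11 pairs passed. How many of all pairs of kept rows would pass was not computed, so these counts have no like share beside them. Over the 9 lines, r was at least 0.7 in 19.0% of the 630 pairs of analysed genes, listed for test or not. The share was 4.77% over all pairs of kept rows. Without Vok these shares were 9.84% and 5.7%. By Spearman's rho, 1 of the 28 pairs passed the adjustment.

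That pair was ENO1 and PKM, enzymes that act one after the other (r = 0.91, n = 9, exact permutation p = 0.00086 and 0.024 after adjustment). For rho, which was 0.97, the exact permutation p was 0.00017 and the adjusted value 0.0046. Without Asia and Khao, the lines farthest from the ENO1 median, r was 0.87, and without Vok it was 0.91 (adjusted exact permutation p = 0.017). Both genes were highest in Phyllis and Melouprey and lowest in Asia. Both rows hold equal values in a pair of lines, as given above. After quantile normalization r was 0.84 and the pair was not called.

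The other 4 called pairs were BNIP3 with BNIP3L (r = 0.96, adjusted exact permutation p = 0.047), SLC2A1 with SLC2A3 (r = 0.82, adjusted 0.0498), VEGFA with ADM (r = 0.81, adjusted 0.0498) and KDM3A with MXI1 (r = 0.85, adjusted 0.0498). Their rho was 0.53, 0.53, 0.78 and 0.68, with unadjusted exact permutation p of 0.15, 0.15, 0.017 and 0.0503 and adjusted values of 0.41, 0.41, 0.16 and 0.28. Vok was one of the lines farthest from the median of the first gene in each. Without Vok and the other farthest line, r was 0.39, 0.22, 0.41 and 0.47, so these relations rested on those lines. Without Vok alone, r was 0.74, 0.64, 0.59 and 0.55, and the adjusted exact permutation p lay between 0.19 and 0.32.

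**Figure D5:**
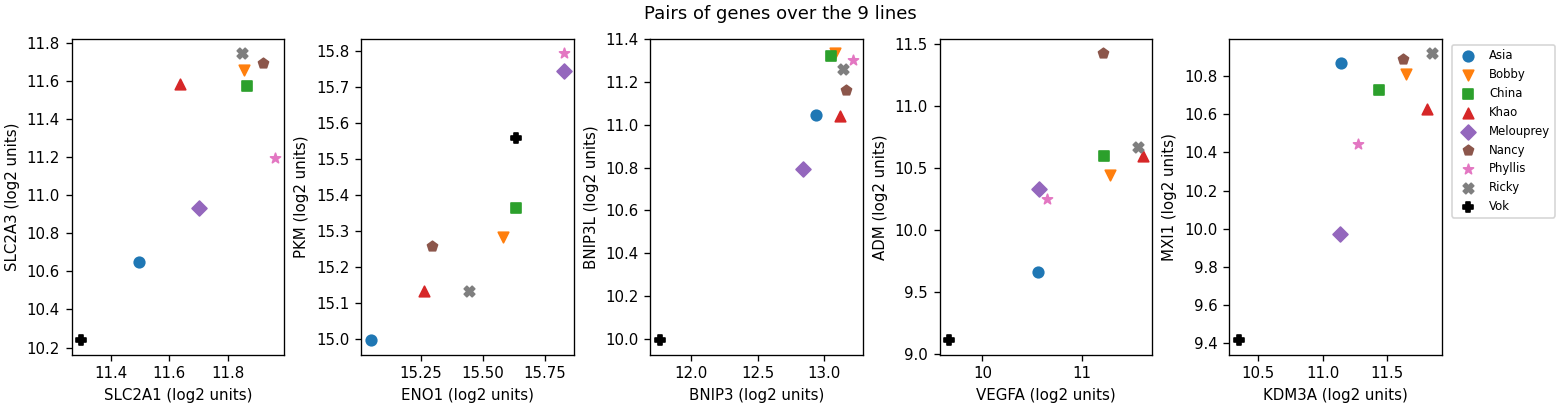
Scatter plots of the 5 pairs that passed the adjusted test, with the log2 level of 1 gene on each axis and 1 symbol for each of 9 lines. Vok (black cross) lies alone at the lower left in 4 of the plots, while ENO1 and PKM (r = 0.91) spread along the diagonal with Vok in its upper part.

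No pair of isozymes passed (0 of 7). HK1 with HK2 gave r = 0.62 (adjusted exact permutation p = 0.15, n = 9), LDHA with LDHB 0.61 (0.15) and ALDOA with ALDOC 0.72 (0.098). ENO1 with ENO2 gave r = -0.38 (adjusted exact permutation p = 0.46). SLC16A1 with SLC16A3 gave -0.81 (adjusted exact permutation p = 0.12), which became -0.020 without Vok. PGK1 with PGAM1 also had a negative r of -0.75 (adjusted exact permutation p = 0.089). The PGAM1 row had a mean of only 3.65 ppm and an SD of 0.091 log2 units, and the levels of both rows are uncertain, as given above. HIF1A with EPAS1 and with EGLN3 gave r of 0.060 and 0.19 (adjusted exact permutation p of 0.91 and 0.72).

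Each kept row was then fitted on the level of a single anchor gene over the 9 lines with limma. On HIF1A, 0 of 35 members were called in either direction at an adjusted p under 0.05, as were 0% of all rows. At an unadjusted p under 0.05, 4 members passed (PKM, ENO1, LDHA and LDHB), all with negative slopes, among 1053 of 12589 rows. Their r with HIF1A was -0.82, -0.82, -0.69 and -0.80, but the smallest adjusted p of any member was 0.59 (limma), and HIF1A itself spanned only 1.23-fold. On PGK1, 0 of 35 members were called, as were 0% of all rows, with 1 member (BNIP3L) and 886 of 12589 rows at an unadjusted p under 0.05. An ordinary slope without moderation also called 0 members on either anchor.

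On BNIP3, 4 of 35 members (11.4%) were called as higher where BNIP3 was higher, against 0.35% of all rows. No member was called as lower, against 0.183% of all rows. The 4 were BNIP3L with a slope of 0.90 ± 0.11 (SE; limma adjusted p = 0.014), ENO2 with 1.64 ± 0.22 (0.020), ANKRD37 with 1.58 ± 0.21 (0.020) and ALDOC with 1.06 ± 0.17 (0.042), in log2 units per log2 unit of BNIP3. At an unadjusted p under 0.05, 18 of the 35 passed, against 2252 of 12589 rows. SLC16A1 was one of the 18, with a slope of -0.35 ± 0.079 (SE). Because Vok lay at least 2.12-fold below every other line in BNIP3, this fit is close to a contrast of Vok with the rest. Without Vok 0 members were called. The call also went to 0 without Bobby, to 1 without Ricky and to 2 without Khao.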

How the data were processed

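The data are 1 table of RNA-seq values for 9 lines. Per the labels' protocols, RNA was purified with an RNeasy kit and libraries followed a TruSeq protocol. The submitters' processing notes name STAR, Trimmomatic, DESeq2 and edgeR without versions or roles. The genome build, annotation and exact scaling were not given in the sources used here. The deposited values are on a log scale, taken as log2, from 0.71 to 18.66, already put on a common scale by the authors: the sums of 2 to the power of each value lay between 13728358 and 14059842. Depth is therefore unknown, and no counting interval or floor is given. The rows are human-format identifiers; the RefSeq gene table used here (Asia_NLE_v1) pairs 0 of its 33914 genes with one, so symbols come from the gene list alone, and no sequence or coordinate is given. Lists of cell type markers and further pathway genes could not be matched.

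A row was kept where its mean reached 1 ppm of that sum. Columns were matched by name, and 0 were left unused. The range is the highest minus the lowest line. A line was outlying by Dixon's gap criterion (0.493 for 9 lines). Pairs of genes were tested by enumerating all 362880 orders of the lines. Slopes on an anchor gene were fitted for every kept row with limma 3.58.1 (R 4.3.3, trend and robust prior), with Benjamini-Hochberg adjustment over 12589 rows and a threshold of 0.05. Both tests were tested on simulated data. Named genes are those spanning at least 2-fold, the oxygen-sensing genes and the members of called pairs, and the others are given by range or by what a comparison needed. The members, pairs and lists were chosen with earlier results of these data known. Comparisons that single out Vok, Phyllis, Asia or Nancy, and the correlations with the effectors, were chosen after the values were seen. The labels say that each line is of a different animal, and p-values measure the spread between these lines. Alternatives were other scalings, a pseudocount of 1 ppm, filters of 5 ppm or none, unmoderated slopes, rank correlation and leaving out each line.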

Additional observations from a re-analysis of the deposited data

Results flagged for a closer look

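Vok lay far from the other lines, by a gap criterion that chance meets in about 1 in 20 groups, in all 8 of the 36 genes (22.2%) that had an outlying line, against 10.1% of all kept rows with any outlying line. It was the outlying low line in 7 of the 36 (19.4%), against 1.52% of all kept rows. The low values were 11.87 log2 units for PFKL (next line 12.27), 10.29 for ALDOC (11.18), 10.57 for ENO2 (11.92) and 10.70 for SLC16A3 (11.29). They were 11.76 for BNIP3 (12.85), 9.99 for BNIP3L (10.80) and 10.35 for KDM3A (11.13). In SLC16A1 Vok was high instead, at 11.17, with the next line at 10.83. The 8 genes are not independent, since all come from the same library.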

How the results depend on the processing

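Counts kept within 1.5 times of those reported under every scaling, pseudocount and filter tried, except for the called pairs. These were 5 as deposited, 1 after quantile normalization, 2 with a pseudocount of 1 ppm and 1 by Spearman's rho. The pair left after quantile normalization was BNIP3 with BNIP3L, whereas by rho it was ENO1 with PKM. ENO1 with PKM (r = 0.84) was not called after quantile normalization. Leaving out 1 line gave 0 to 4 called pairs (0 without Melouprey and 0 without Phyllis), 10 to 17 genes spanning at least 2-fold, 3 to 6 spanning at least 4-fold, 1 to 12 with an outlying line and 0 to 5 called on BNIP3. The lowest values of the range counts and of the outlying count were those without Vok, and 12 outlying lines were found without Melouprey. The count on HIF1A and on PGK1 was 0 under every setting. ENO1 with PKM was called in 7 of the 9 omissions and BNIP3 with BNIP3L in 5. Of the 11 effectors, 10 spanned at least 2-fold with all lines and 5 without Vok, an omission chosen after seeing the data. The causes were not tested. No paired analysis was possible because the labels name a single group. With the depth unknown, counting noise in low rows such as CA9, GPI and PGAM1 could not be removed.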
